A study of Mus musculus with 4 samples.

Results

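Hdac3, a class I histone deacetylase, works inside the nuclear receptor corepressor complex. The 5 genes described here are Hdac3 and 4 further subunits of that complex: Ncor1, Tbl1x, Tbl1xr1 and Gps2. They were found by their symbols among the 27998 genes of the files, and all 5 matched. The members span 4 chromosomes of the mouse build GRCm38: Hdac3 (ENSMUSG00000024454) lies at chr18:37935844-37955016 on the minus strand and Ncor1 (ENSMUSG00000018501) at chr11:62316426-62458541 on the minus strand. On the plus strand lie Tbl1x (ENSMUSG00000025246) at chrX:77511013-77662983, Tbl1xr1 (ENSMUSG00000027630) at chr3:22076652-22216594 and Gps2 (ENSMUSG00000023170) at chr11:69913888-69916591. All 5 are annotated as protein-coding. The annotation used here (GENCODE M21) lists no gene of the count files that overlaps a member on the same strand, while Ttc19 and Pigl overlap Ncor1 on the opposite strand.

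A corepressor complex is brought to DNA by transcription factors such as unliganded nuclear receptors, and it removes acetyl groups from histone tails, which is associated with gene silencing. Ncor1 is the scaffold whose deacetylase-activating domain binds Hdac3 and switches on its enzyme activity. Tbl1x and Tbl1xr1 are close paralogues with WD40 repeats that link the complex to chromatin and to the ubiquitin machinery, and Gps2 is a small subunit that binds both the scaffold and the Tbl1x-type subunits. In blood formation, Hdac3 is known for its role in multipotent progenitors. Nup358, also called Ranbp2, is a nucleoporin of the cytoplasmic filaments of the nuclear pore, and the study that produced the counts links it to the movement of the Hdac3 protein into the nucleus. The counts measure RNA and do not show where a protein is.

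RNA was counted in single LSK cells, the Lin- Sca1+ cKit+ fraction of mouse bone marrow that holds stem cells and multipotent progenitors. There were 4 libraries, 2 from control mice (Nup358 fl/fl, labelled wild-type) and 2 from Nup358 knockout mice (Nup358 fl/fl with CreERT2 expressed from the Rosa26 locus in all tissues). Each library pooled 3 mice of 9 to 12 weeks of age. Tamoxifen was given on 3 days. Droplet counting at 3′ transcript ends gives each captured molecule a unique molecular identifier (UMI). These ends do not read the deleted exon, so the level of the Nup358 transcript Ranbp2, which was 127 and 101 CPM (UMIs per 1000000 UMIs of the summed cells) in control and 124 and 126 in knockout libraries, is no check of the genotype.

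The libraries shared cell barcodes. Of 25242 deposited barcodes, 10936 (43.3%) had at least 3 times as many UMIs under the same sequence in another library, among them 81.8% of the barcodes of control replicate 2 and 65.3% of those of knockout replicate 1, and of those of control replicate 2, 1232 were larger in knockout replicate 1 and 2598 in knockout replicate 2. These copied barcodes were left out. The edgeR tests were repeated with them, except those between 2 progenitor types that are both other than unprimed. Of the shares of UMIs compared below, only that of Tbl1xr1 among the paralogues over all cells was repeated. The kept cells numbered 7830 and 1200 in control and 1589 and 3422 in knockout libraries, with 18846887 to 59033602 UMIs in a library. Kit and Ly6a, which encode cKit and Sca1, were at 76.0 to 115 and 158 to 262 CPM in unprimed cells, the T cell gene Cd3e at no more than 0.275, and Kit was lower in both knockout libraries than in both controls.

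Over all kept cells the RNA of Hdac3 and of its scaffold Ncor1 did not differ detectably between the genotypes. These sums pool all cell types, whose mix differed between the genotypes, as given below. Hdac3 was at 36.9 and 38.6 CPM in control replicates 1 and 2 and at 45.9 and 39.8 CPM in knockout replicates 1 and 2. Both knockout values were above both control values, the nearest by little. The fitted difference for Hdac3 was 0.14 ± 0.15 (SE, n = 2 and 2) on the log2 scale with a 95% interval from -0.20 to 0.49 (edgeR adjusted p = 0.622). That interval spans 0.869-fold to 1.40-fold. Ncor1 was at 238 and 204 CPM in control and at 217 and 208 CPM in knockout libraries, and the groups overlapped. Its difference was -0.10 ± 0.15 on the log2 scale (edgeR adjusted p = 0.740).

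Tbl1xr1 and Gps2 stood further apart between the groups than Hdac3 and Ncor1, in opposite directions, and neither passed the test. Tbl1xr1 was at 54.5 and 43.5 CPM in control and at 76.6 and 81.4 CPM in knockout libraries. Gps2 was at 43.6 and 54.1 CPM in control and at 34.2 and 31.1 CPM in knockout libraries. In neither gene did the groups overlap. The difference of Tbl1xr1 was 0.65 ± 0.15 on the log2 scale, or 1.57-fold (95% interval 1.22 to 2.02), with an edgeR adjusted p of 0.0683. For Gps2 it was -0.62 ± 0.17 on the log2 scale, or 0.650-fold (95% interval 0.493 to 0.857), with an edgeR adjusted p of 0.0927. The unadjusted edgeR p-values were 0.0040 and 0.0079, and the threshold was an adjusted p of 0.05. Tbl1x, the paralogue of Tbl1xr1, was at 79.0 and 60.1 CPM in control and at 77.7 and 85.0 CPM in knockout libraries. Control replicate 2 was the lowest library for Tbl1x and for Tbl1xr1 alike, and the Tbl1x groups overlapped (0.19 ± 0.16 on the log2 scale, edgeR adjusted p = 0.559).

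**Figure D1:**
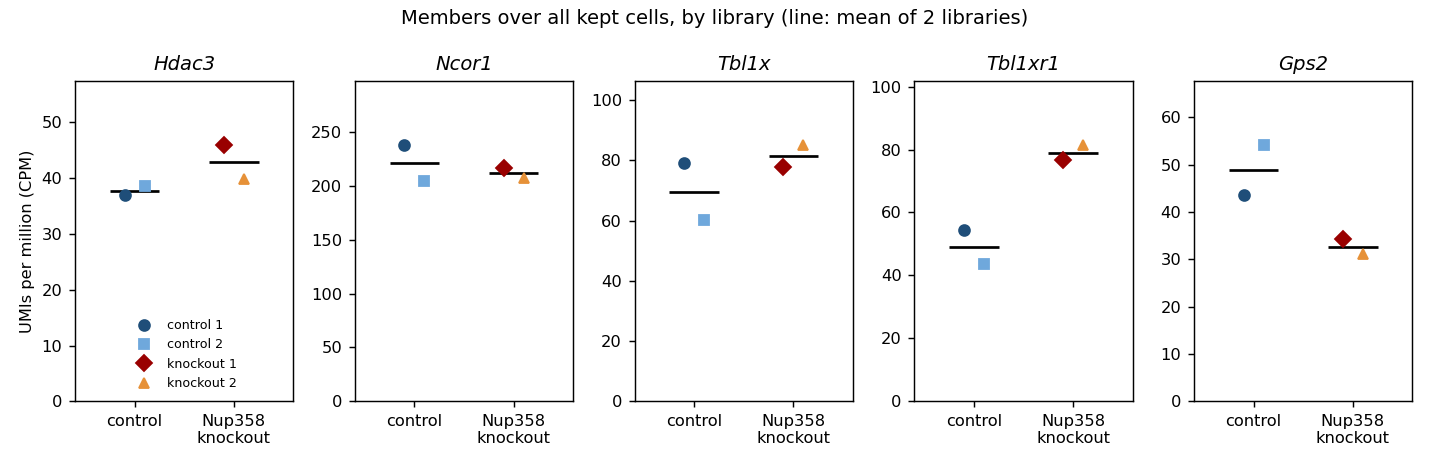
UMIs per 1000000 UMIs (CPM) of the 5 members over all kept cells, 1 point a library and a line at the mean of the 2 libraries of a genotype. The 4 libraries of Tbl1xr1 sit at 54.5 and 43.5 CPM in control and 76.6 and 81.4 CPM in knockout, and those of Gps2 at 43.6 and 54.1 against 34.2 and 31.1 CPM.

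None of the 5 members was called by edgeR's quasi-likelihood test over all cells, against 3.44% of the 13779 genes tested. An unadjusted edgeR p under 0.05 was found for 2 of the 5 and for 2986 of the 13779 genes. Groups that do not overlap are common in these libraries: 54.1% of 14899 genes with at least 15 UMIs had both knockout values on the same side of both control values. The call for Tbl1xr1 and Gps2 depended on the tool, and the size of their differences on the libraries kept. With DESeq2 the adjusted p was 0.0139 for Tbl1xr1 and 0.0475 for Gps2. Without control replicate 1 the difference was 0.79 for Tbl1xr1 and -0.80 for Gps2 on the log2 scale. Without control replicate 2 it was 0.52 for Tbl1xr1 and -0.44 for Gps2. Such fits leave 1 control library, so the spread between controls is not measured in them. With copied barcodes included, the differences were 0.52 for Tbl1xr1 and -0.51 for Gps2 on the log2 scale and neither was called. In simulated counts for this comparison, run on 13365 genes, 44.3% of the genes changed by a log2 size of 1 were found and 9.72% of the calls were false. Few genes were changed in that simulation and all others were set to no change. These shares need not hold in the real counts.

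The balance of the paralogues gave a measure within each library that needs no scaling between libraries. It is built from the same Tbl1x and Tbl1xr1 UMIs as the differences above and is not independent of them. Tbl1xr1 UMIs made up 40.8% of the 7880 UMIs of Tbl1x and Tbl1xr1 together in control replicate 1 (exact 95% interval 39.7 to 41.9) and 42.0% of 1953 in control replicate 2 (39.8 to 44.2). In knockout replicate 1 they made up 49.6% of 5051 (48.2 to 51.0) and in knockout replicate 2 48.9% of 8961 (47.9 to 50.0). The intervals cover counting error only. The mean share was 41.4% ± 0.822 (SD, n = 2) in control and 49.3% ± 0.510 (SD, n = 2) in knockout libraries, a difference of 7.87 percentage points. An exact permutation test of 2 against 2 libraries cannot go below a two-sided p of 0.333, which is the value it gave. The capture of a transcript can differ between genes, so the share is read between libraries and not as the ratio of the proteins. With the same measure, Hdac3 made up 17.4% and 17.3% of the UMIs of the class I deacetylases Hdac1, Hdac2, Hdac3 and Hdac8 in control and 17.4% and 16.3% in knockout libraries, which overlapped.

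Cells were then sorted into progenitor types by the summed UMIs of marker genes, none of them a member. Of 9 gates, 5 held at least 20 cells in every library: stem-like, lymphoid-primed, erythroid-primed, monocyte and dendritic-primed and neutrophil-primed. Cells that passed no gate were called unprimed. The smallest tested sums were 26 erythroid-primed cells of control replicate 2 and 38 monocyte and dendritic-primed cells of knockout replicate 2, in which a member could rest on as few as 11 UMIs. The gated cells were not alike in the 2 genotypes: Elane, the neutrophil elastase gene used for gating, was at 4755 and 4615 CPM in control but 578 and 699 CPM in knockout neutrophil-primed cells, and the erythroid factor gene Klf1 at 180 and 136 against 74.9 and 94.1 CPM in erythroid-primed cells. The mix of types differed as well. Neutrophil-primed cells were 1831 of 7830 and 139 of 1200 in control and 57 of 1589 and 53 of 3422 in knockout libraries. B lineage cells, from a gate too small to test, numbered 10 and 7 in control and 112 and 314 in knockout libraries. The values over all cells pool these types. The part of these differences in the members' values was not tested.

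Hdac3 had a positive fitted difference in all 6 types, from 0.06 in lymphoid-primed to 0.48 in stem-like cells on the log2 scale, and none was called by edgeR's adjusted p. Its sign did not hold under every alternative: it turned negative in neutrophil-primed cells with copied barcodes included, in monocyte and dendritic-primed cells under 3 alternatives, and in lymphoid-primed cells without control replicate 1 or without knockout replicate 1. The difference was largest in stem-like cells, where Hdac3 was at 31.3 and 31.9 CPM in control and at 49.8 and 41.1 CPM in knockout libraries. Both knockout libraries lay above both controls there, and the difference was 0.48 ± 0.21 on the log2 scale (edgeR adjusted p = 0.174, and 0.0382 before adjustment). In erythroid-primed cells Hdac3 was at 29.5 and 35.2 CPM in control and at 40.3 and 43.0 CPM in knockout libraries (0.39 ± 0.30 on the log2 scale, edgeR adjusted p = 0.813), with 14 UMIs behind the value of control replicate 2. In unprimed cells the values were 36.9 and 38.6 CPM in control and 46.3 and 38.8 CPM in knockout libraries, and in lymphoid-primed cells 41.2 and 42.2 against 46.8 and 40.8 CPM, where the groups overlapped.

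The stem-like cells of the 2 genotypes, in which the Hdac3 difference was largest, also differed in cell cycle genes. Of 18 genes of the G2/M phase, 7 were higher in knockout stem-like cells (Birc5, Bub1, Cdk1, Cenpe, Cenpf, Kif11 and Ube2c), with a median over the 18 of 0.84 on the log2 scale, whereas the median over all 10584 genes tested was -0.01. Cdk1, the kinase that drives entry into mitosis, was higher by 0.97 ± 0.21 on the log2 scale (edgeR adjusted p = 0.0133). Of all genes tested in stem-like cells, 7.79% were called between the genotypes. The part of the cell cycle in the Hdac3 value was not tested in these cells. Over all cells, Hdac3 differed by 0.12 ± 0.08 on the log2 scale between cells with a high and a low share of G2/M UMIs (edgeR adjusted p = 0.267).

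Tbl1xr1 was higher in both knockout libraries than in both controls in 6 of 6 types. Over all cells 54.1% of 14899 genes had groups that do not overlap, and within types this share was not computed. In unprimed cells it was at 57.9 and 42.1 CPM in control and at 76.6 and 79.4 CPM in knockout libraries (0.66 ± 0.16 on the log2 scale, edgeR adjusted p = 0.0638). In neutrophil-primed cells the values were 46.9 and 39.7 CPM against 70.7 and 82.3 CPM (0.80 ± 0.19 on the log2 scale, edgeR adjusted p = 0.0518). The groups were closest in stem-like cells, at 70.4 and 43.9 CPM against 75.3 and 78.3 CPM (0.38 ± 0.21 on the log2 scale, edgeR adjusted p = 0.287). In lymphoid-primed cells Tbl1xr1 was at 65.3 and 56.0 CPM in control and at 93.1 and 94.0 CPM in knockout libraries. Erythroid-primed cells held 54.5 and 32.7 CPM against 80.5 and 82.9 CPM, and monocyte and dendritic-primed cells 52.5 and 43.5 CPM against 80.9 and 109 CPM. Unadjusted edgeR p-values were under 0.05 in 5 of the 6 types, which share the same 4 libraries and are not independent of each other or of the values over all cells. The counts of all genes with such p-values in each type are given below.

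Gps2 lay the other way, with a negative fitted difference in 6 of 6 types and both knockout libraries below both controls in 5. Here too the share of all genes with such groups within types was not computed. Lymphoid-primed cells were the exception, at 39.3 and 50.9 CPM in control and 39.5 and 32.6 CPM in knockout libraries. The widest gap was in erythroid-primed cells, at 63.3 and 100.5 CPM (101 and 40 UMIs) in control and 29.1 and 31.8 CPM (21 and 51 UMIs) in knockout libraries. There the difference was -1.39 ± 0.33 on the log2 scale, or 0.383-fold (95% interval 0.233 to 0.627), with an edgeR p of 0.00094 and an adjusted p of 0.0847. Without control replicate 1 the difference was -1.86 on the log2 scale, and without control replicate 2 it was -0.996. The SD was 26.3 CPM in control and 1.87 CPM in knockout libraries. A fit with 1 control library does not measure the spread between controls, so its calls are not given. In stem-like cells Gps2 was at 46.1 and 54.1 CPM in control and at 36.0 and 27.4 CPM in knockout libraries (-0.71 ± 0.22 on the log2 scale, edgeR adjusted p = 0.0650). In unprimed cells it was at 46.4 and 55.5 CPM against 33.8 and 30.5 CPM (-0.64 ± 0.16 on the log2 scale, edgeR adjusted p = 0.0722).

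Ncor1 and Tbl1x had no such pattern. Fitted differences of Ncor1 ran from -0.24 in monocyte and dendritic-primed to 0.07 in erythroid-primed cells on the log2 scale, and those of Tbl1x from -0.33 in monocyte and dendritic-primed to 0.19 in stem-like cells. Their smallest edgeR adjusted p-values over the 6 types were 0.583 and 0.592. In all, 0 of 30 tests of a member within a type were called, and 10 had an unadjusted edgeR p under 0.05. Unadjusted edgeR p-values that low held for 3327 of 12804 genes in unprimed, 2624 of 10584 in stem-like and 1896 of 10178 in lymphoid-primed cells. They held for 709 of 8142 genes in erythroid-primed, 895 of 7946 in monocyte and dendritic-primed and 1564 of 9583 in neutrophil-primed cells. The share of all genes called was 3.64% in unprimed, 7.79% in stem-like, 0.472% in lymphoid-primed, 0.786% in erythroid-primed, 2.45% in monocyte and dendritic-primed and 2.10% in neutrophil-primed cells. DESeq2 called 2 of the 30, both in unprimed cells: Tbl1xr1 (0.67 on the log2 scale, adjusted p = 0.0179) and Gps2 (-0.63, adjusted p = 0.0430). The share of all genes that DESeq2 called within types is not given here.

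**Figure D2:**
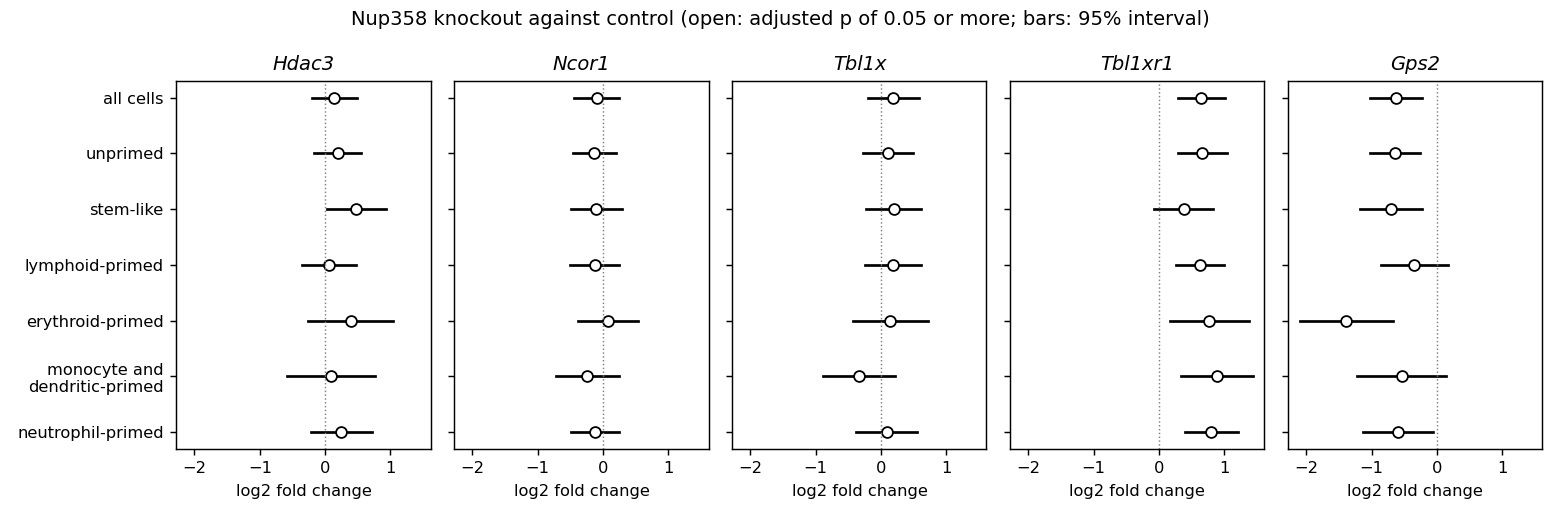
Log2 fold change of each member, Nup358 knockout against control, over all cells and within 6 progenitor types, with 95% intervals from edgeR and open points for adjusted p of 0.05 or more. All points are open, Tbl1xr1 lies above 0 and Gps2 below 0 in every row, and Hdac3 runs from 0.06 in lymphoid-primed to 0.48 in stem-like cells.

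Whether a genotype difference was larger in 1 type than in unprimed cells was tested as an interaction. None of 25 such tests was called, whereas 1.43% of all genes were called for erythroid-primed, 0.123% for lymphoid-primed, 5.84% for monocyte and dendritic-primed, 2.38% for neutrophil-primed and 1.19% for stem-like cells. The 5 tests with an unadjusted edgeR p under 0.05 fell in erythroid-primed, lymphoid-primed and stem-like cells. Of 11377 genes tested, 1322, 704 and 1303 had such a p in these types, in that order. In monocyte and dendritic-primed cells 2151 genes had one, and in neutrophil-primed cells 1696. The Gps2 difference in erythroid-primed minus that in unprimed cells was -0.62 ± 0.21 on the log2 scale, which did not pass the threshold (edgeR adjusted p = 0.166, and 0.0059 before adjustment). The Hdac3 difference in stem-like cells exceeded that in unprimed cells by 0.31 ± 0.15 on the log2 scale (edgeR adjusted p = 0.414, and 0.0435 before adjustment). For Tbl1xr1 in stem-like cells the interaction was -0.27 ± 0.12 (edgeR adjusted p = 0.407), for Gps2 in lymphoid-primed cells 0.34 ± 0.14 (adjusted p = 0.674) and for Ncor1 in erythroid-primed cells 0.29 ± 0.13 (adjusted p = 0.352).

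The share of Tbl1xr1 among the UMIs of the paralogues was also compared between types. In stem-like cells it was at 39.4% and 36.8% in control and 43.1% and 40.3% in knockout libraries. In neutrophil-primed cells it was 42.4% and 48.3% in control and 57.6% and 56.8% in knockout libraries. The share was higher in neutrophil-primed than in stem-like cells in 4 of 4 libraries, by 11.4 ± 5.93 percentage points (SD, n = 4). For this the paired exact permutation test gave a two-sided p of 0.125, the smallest that 4 pairs allow. Between these types Tbl1xr1 itself differed by 0.01 ± 0.10 on the log2 scale (edgeR adjusted p = 0.946). Tbl1x was lower in neutrophil-primed cells, by -0.62 ± 0.09. Both knockout shares exceeded both control shares in 6 of 6 types. These shares use the same UMIs as the Tbl1xr1 values within types and restate them in part. How often this holds for other pairs of genes was not counted. The difference was 3.58 percentage points in stem-like and 21.1 in monocyte and dendritic-primed cells, where the knockout values rest on 96 and 63 UMIs.

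**Figure D3:**
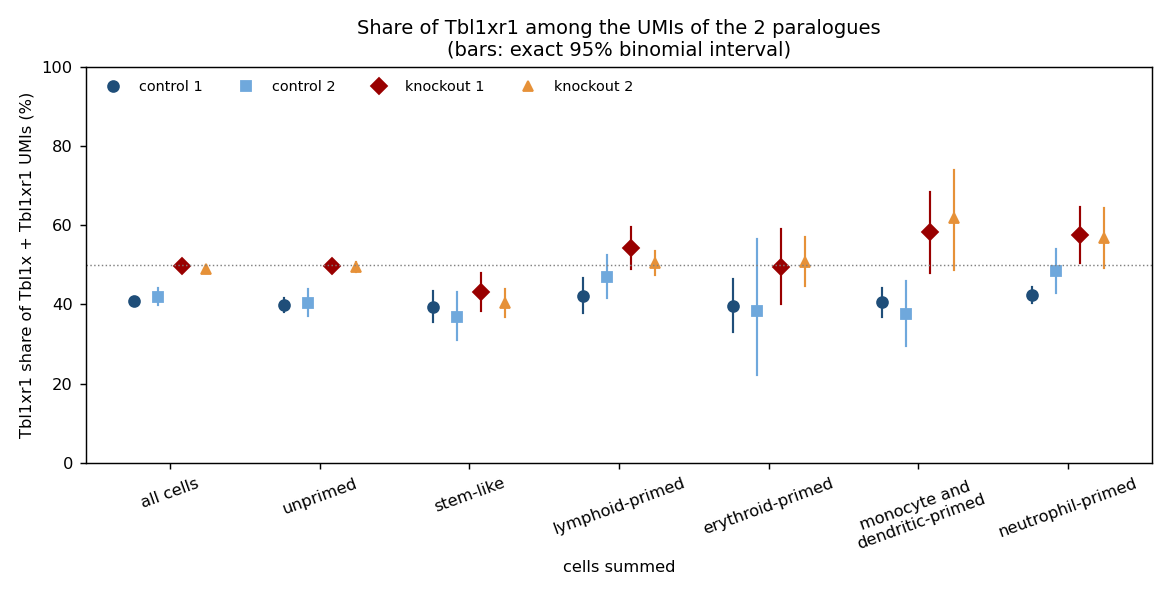
Percent of the UMIs of Tbl1x and Tbl1xr1 that belong to Tbl1xr1, 1 point a library with its exact 95% binomial interval, over all cells and in 6 progenitor types, with a dotted line at 50%. The knockout points lie above the control points in each column, from 49.6% and 48.9% against 40.8% and 42.0% over all cells to a narrow gap in stem-like cells.

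Between types, in fits with the library as a block, 5 of 25 tests of a member against unprimed cells were called. All of these values read the same 4 libraries. The share of all 10980 genes called was 46.7% for neutrophil-primed, 32.8% for stem-like, 29.3% for erythroid-primed, 17.0% for monocyte and dendritic-primed and 11.5% for lymphoid-primed cells, beside 2 of the 5 members in neutrophil-primed, 1 each in stem-like, erythroid-primed and lymphoid-primed and 0 in monocyte and dendritic-primed cells. Scaling by library totals in place of the trimmed mean of M-values (TMM) moved the median of all genes from -0.03 to -0.18 on the log2 scale in neutrophil-primed and from 0.04 to 0.12 in stem-like cells.

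Tbl1x had the clearest pattern over types. It was lower in neutrophil-primed than in unprimed cells of every library, at 63.7 and 42.4 CPM against 87.6 and 62.0 CPM in control and at 52.1 and 62.5 CPM against 77.7 and 80.9 CPM in knockout libraries. The difference was -0.33 ± 0.08 on the log2 scale (edgeR adjusted p = 0.0022) and was called under each of its 10 alternatives, with adjusted p from 4.6e-05 to 0.0260. In stem-like cells Tbl1x was higher than in unprimed cells of every library, at 108 and 75.3 CPM in control and 99.6 and 116 CPM in knockout libraries. This difference was 0.29 ± 0.08 on the log2 scale (edgeR adjusted p = 0.0076), and the call was lost in 3 of 11 alternatives: without control replicate 1 (adjusted p = 0.0502), without knockout replicate 2 (0.0773) and with no filter on low counts (0.0727). Neutrophil-primed and stem-like cells stood furthest apart, by -0.62 ± 0.09 on the log2 scale (edgeR adjusted p = 1.7e-06, with 63.1% of all genes called in that comparison). Alternatives were not run for pairs of gated types.

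The level of Hdac3 varied less. In the order of the fitted values it was highest in neutrophil-primed cells, at 0.23 above unprimed on the log2 scale, then lymphoid-primed at 0.12, unprimed, monocyte and dendritic-primed at -0.01, erythroid-primed at -0.05 and stem-like at -0.15. No neighbours in this order passed edgeR's threshold, and the ends of it did (0.38 ± 0.10 on the log2 scale between neutrophil-primed and stem-like cells, edgeR adjusted p = 0.0022, with 63.1% of all genes called in that comparison). Lymphoid-primed cells were also called above stem-like cells (0.27 ± 0.10, edgeR adjusted p = 0.0413, with 31.4% of all genes called). Their mean in control libraries was 41.7 CPM against 31.6 CPM in stem-like cells. In knockout libraries it was not higher, at 43.8 CPM against 45.45 CPM. No alternative was run for either pair. In CPM the controls were at 37.3 and 40.9 in neutrophil-primed against 31.3 and 31.9 in stem-like cells, while the knockout libraries were at 49.6 and 42.8 against 49.8 and 41.1, which differed by little. The place of neutrophil-primed cells rests on the scaling. Against unprimed cells Hdac3 was called in them with TMM (0.23 ± 0.09 on the log2 scale, edgeR adjusted p = 0.0343) and not with library totals (0.08, adjusted p = 0.459). Its CPM in unprimed cells was 36.9 and 38.6 in control and 46.3 and 38.8 in knockout libraries. The call was lost in 6 of 10 alternatives, which besides library totals were with copied barcodes included (0.07, edgeR adjusted p = 0.593), with no filter on low counts (0.23, adjusted p = 0.103), without control replicate 1 (0.27, adjusted p = 0.0728), without control replicate 2 (0.21, adjusted p = 0.125) and without knockout replicate 2 (0.21, adjusted p = 0.0729).

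Gps2 was called higher in erythroid-primed than in unprimed cells, by 0.39 ± 0.14 on the log2 scale (edgeR adjusted p = 0.0318). The libraries did not act alike: both controls were higher in erythroid-primed cells (63.3 against 46.4 CPM and 100.5 against 55.5 CPM), whereas knockout replicate 1 was lower (29.1 against 33.8 CPM) and knockout replicate 2 differed by little (31.8 against 30.5 CPM). The call was lost in 5 of 11 alternatives. The edgeR adjusted p was 0.252 without control replicate 1 (0.32 on the log2 scale), 0.213 without control replicate 2 (0.26), 0.0966 with no filter on low counts, 0.0695 with a stricter gate (4 times the mean share of marker UMIs) and 0.0631 with library totals. Tbl1xr1 was higher in lymphoid-primed than in unprimed cells of every library, by 0.30 ± 0.09 on the log2 scale (edgeR adjusted p = 0.0211). This call was lost in 6 of 11 alternatives: without control replicate 2 (0.25, adjusted p = 0.228), without knockout replicate 1 (0.29, adjusted p = 0.130), without knockout replicate 2 (0.29, adjusted p = 0.0793), with copied barcodes included (0.22, adjusted p = 0.0532), with no filter on low counts (0.26, adjusted p = 0.106) and with the stricter gate (0.28, adjusted p = 0.0788). Ncor1 was called against unprimed cells in none of the 5 types, with differences between -0.12 and 0.11 on the log2 scale. It was called higher in erythroid-primed than in monocyte and dendritic-primed cells (0.24 ± 0.09, edgeR adjusted p = 0.0420, with 26.2% of all genes called). The means were 220 against 204 CPM in control and 241 against 179 CPM in knockout libraries. Of 50 tests of a member between gated types, 11 were called higher and 3 lower in the first type. By pair, 12.7% to 63.1% of all genes were called. The text gives some of these member tests.

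**Figure D4:**
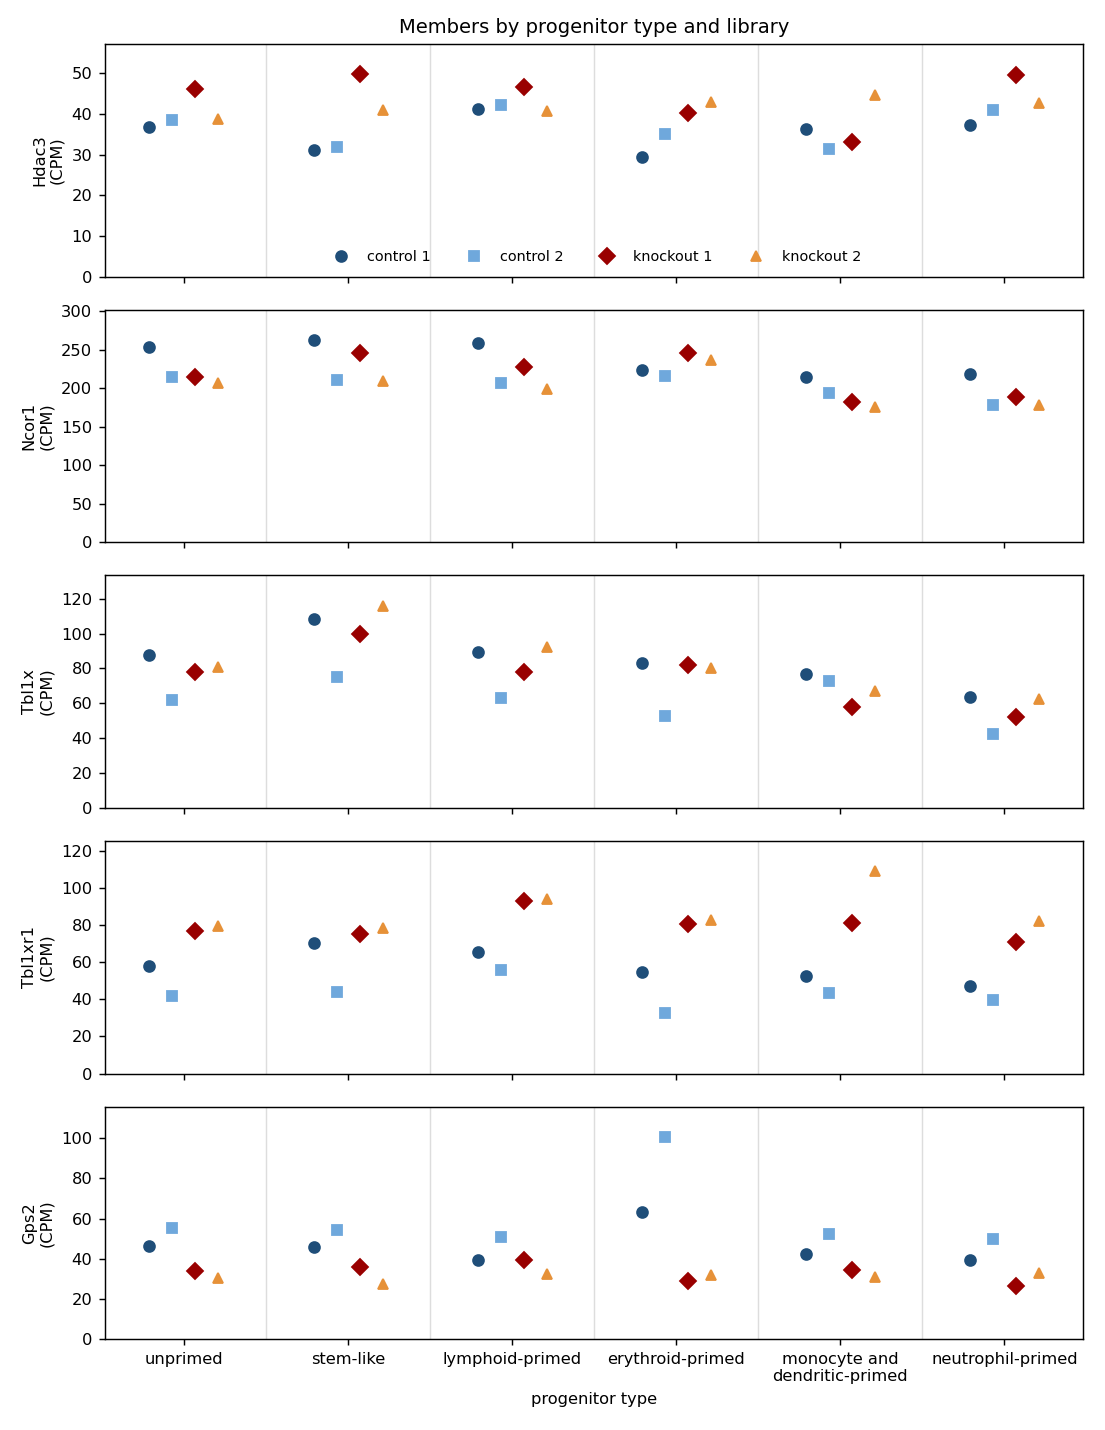
UMIs per 1000000 UMIs (CPM) of each member in 6 progenitor types, 1 point a library, with axes from 0. Tbl1x runs from 42.4 to 63.7 CPM in neutrophil-primed and from 75.3 to 116 CPM in stem-like cells, and the 2 control values of Gps2 in erythroid-primed cells, 63.3 and 100.5 CPM, stand above its other points.

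**Figure D5:**
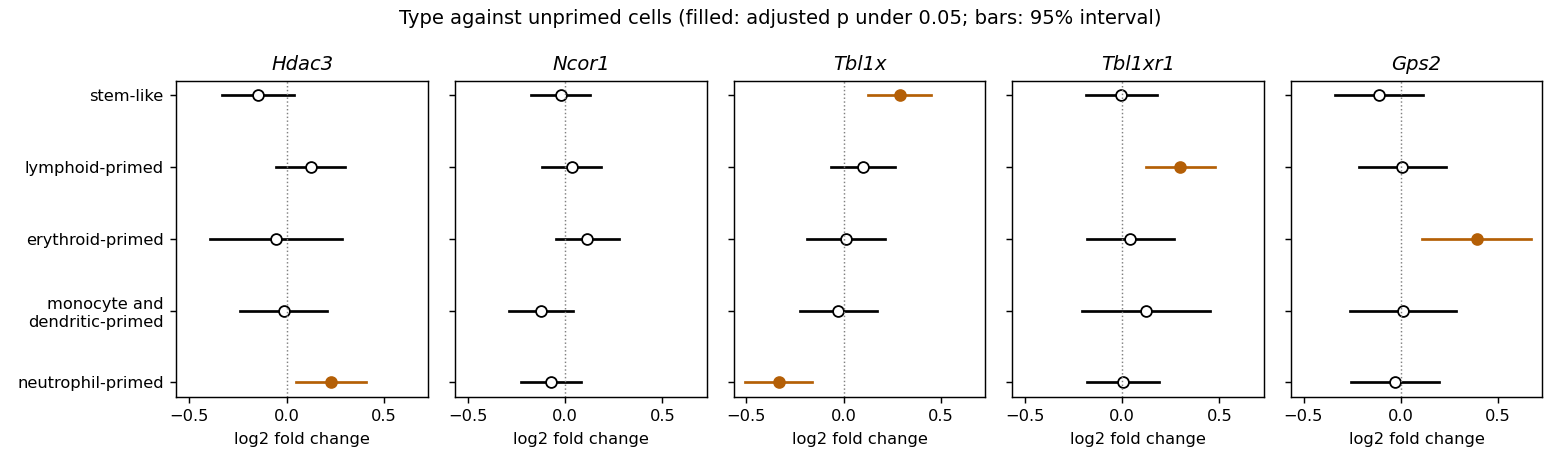
Log2 fold change of each member in 5 progenitor types against unprimed cells, with 95% intervals from edgeR and filled points for adjusted p under 0.05. The 5 filled points are Tbl1x in stem-like (0.29) and neutrophil-primed cells (-0.33), Hdac3 in neutrophil-primed (0.23), Tbl1xr1 in lymphoid-primed (0.30) and Gps2 in erythroid-primed cells (0.39).

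Megakaryocyte-primed cells were too few for a test, with 16 in control replicate 2 and 20 in knockout replicate 1. In them Hdac3 was at 45.8 and 65.1 CPM in control and at 34.8 and 54.9 CPM in knockout libraries, which overlapped. Tbl1xr1 was at 61.3 and 20.0 CPM (83 and 4 UMIs) against 63.5 and 74.8 CPM. Gps2 was at 45.1 and 60.1 CPM (61 and 12 UMIs) against 28.7 and 35.1 CPM (14 and 53 UMIs), with both knockout libraries below both controls. Basophil and mast-primed, B lineage and plasmacytoid dendritic gates held as few as 2, 7 and 2 cells in a library, and their values are not set side by side here.

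Cells with a high share of G2/M UMIs were compared with cells of low share within each library. The classes were not balanced for type or depth. In control replicate 1 the median was 8923.5 UMIs in G2/M-high and 3639.5 in G2/M-low cells, and G2/M-high cells were deeper in every library. Against unprimed cells, 16 of 18 G2/M genes were lower in stem-like and 9 higher in neutrophil-primed cells. The part of type and depth in the members' values was not tested. Of the 5 members, 1 was called, against 39.6% of the 12131 genes tested, and in simulated counts for this comparison, run on 11979 genes, 9.95% of the calls were false. Tbl1x was lower in G2/M-high cells of every library, at 70.7 and 60.8 CPM against 95.4 and 66.5 CPM in control and at 72.3 and 80.4 CPM against 91.2 and 103 CPM in knockout libraries. The difference was -0.25 ± 0.07 on the log2 scale (edgeR adjusted p = 0.0196), with adjusted p of 0.0857 without control replicate 1 (-0.23) and 0.0567 without knockout replicate 1 (-0.26). Differences of the other members were 0.09 for Ncor1 and Tbl1xr1 and 0.19 for Gps2 on the log2 scale, with edgeR adjusted p of 0.272, 0.357 and 0.101.

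The wider machinery of histone acetylation was measured in the same tests. Over all cells 0 of the genes of each list were called between the genotypes by edgeR: 0 of 7 other corepressor components and cofactor enzymes, 0 of 10 other deacetylases, 0 of 21 factors that recruit the complex, 0 of 13 SIN3, 0 of 9 NuRD and 0 of 8 CoREST genes and 0 of 12 acetyltransferases. Medians of the lists lay between -0.10 and 0.13 on the log2 scale, beside -0.01 over all genes. Hdac1 and Hdac2, the class I enzymes of the SIN3, NuRD and CoREST complexes, differed by 0.15 ± 0.14 and 0.30 ± 0.14 on the log2 scale (edgeR adjusted p = 0.587 and 0.268). The class II gene Hdac5 was at 22.2 and 17.4 CPM in control and at 12.5 and 13.1 CPM in knockout libraries (-0.67 ± 0.17 on the log2 scale, edgeR adjusted p = 0.0738). Thra, which encodes a thyroid hormone receptor that binds the complex, was at 39.4 and 30.3 CPM against 23.6 and 21.7 CPM (-0.66 ± 0.16, edgeR adjusted p = 0.0740). In stem-like cells Thra was called lower in knockout libraries (-0.81 ± 0.21, edgeR adjusted p = 0.0344), as was Zbtb16, which encodes the repressor PLZF (-1.24 ± 0.36, adjusted p = 0.0499), 2 of 15 recruiting factors tested there, beside 7.79% of all genes.

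Between types genes of these lists were called in both directions. In stem-like against unprimed cells 5 of 8 CoREST genes were higher and none lower, and in neutrophil-primed cells none was higher and 5 of 8 were lower. Coro2a, an actin-binding component of the complex, was lower in neutrophil-primed cells (-0.44 ± 0.13 on the log2 scale, edgeR adjusted p = 0.0086) and in erythroid-primed cells (-1.99 ± 0.20 on the log2 scale, edgeR adjusted p = 4.0e-08). Among other deacetylases Hdac7, a class II enzyme, was higher in erythroid-primed cells (1.86 ± 0.16 on the log2 scale, edgeR adjusted p = 1.2e-09). It was the 1 of 10 called higher there, while 3 were called lower (Hdac5, Hdac6 and Hdac9). In lymphoid-primed cells Coro2a and Hdac7 were both called higher, and in neutrophil-primed cells Hdac7 was called lower. These values pool the genotypes. The interaction with genotype was called, upward in knockout, for Coro2a in neutrophil-primed and for Hdac7 in erythroid-primed cells. In erythroid-primed against unprimed cells Hdac3 was not called, at -0.05 ± 0.16 on the log2 scale. Its interaction with genotype was 0.28 ± 0.23 in erythroid-primed and 0.05 ± 0.15 in neutrophil-primed cells, and neither was called. The background shares of these comparisons are those given above.

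Genes whose level followed a member most closely were taken from 24 sums of 4 libraries and 6 types, after centring log2 CPM within each library. Over 5935 genes, Hdac3 went most closely with Cbx3, which encodes a heterochromatin protein (Pearson r = 0.709), with the chaperone gene Dnaja1 (0.697) and with l7Rn6 (0.674). The highest r was 0.907 for Ncor1 (Zfand2b), 0.945 for Tbl1x (Trim44), 0.815 for Tbl1xr1 (Rabgap1l) and 0.850 for Gps2 (Zranb2). Between members r was 0.716 for Ncor1 and Tbl1x and at most 0.301 for any other pair. The sums share libraries and depth and the genes were chosen for the highest r among many, so these are descriptions.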

How the data were processed

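Libraries were prepared with the 10x 3′ v3.1 chemistry. The authors aligned reads to GRCm38 (mm10) and counted UMIs with Cell Ranger (3.1 per the labels); they deposited whole-number UMI counts per gene and barcode without normalization. Of 27998 gene identifiers, 27645 were in GENCODE M21. Barcodes with fewer than 200 genes, more than 10% mitochondrial UMIs, or at least 3 times more UMIs under the same sequence in another library were left out. No doublet caller was run. A cell passed a gate when its marker UMIs were at least 2 times the mean share, at least 5 per 10000 UMIs and from at least 2 markers. UMIs were summed per library and type (at least 20 cells in each library). Sums were tested with edgeR 4.0.16 (R 4.3.3): filterByExpr, TMM scaling, quasi-likelihood test, Benjamini-Hochberg adjustment over all genes, threshold 0.05. SEs and 95% intervals come from that test. G2/M-high cells had at least 2 times, G2/M-low cells under 0.25 times, the mean share of G2/M UMIs. The likeness of genes used log2(CPM + 1) and genes of at least 20 CPM.

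The study names DESeq2, which was run as an alternative (1.42.0). A total of 12 alternatives were listed at the outset. Scaling by library totals and the repeats of the paralogue share were added after the data were seen. The shares of UMIs themselves were not among the tests listed at the outset. The members and gene lists were chosen with earlier results of these data known. Named genes are the members, list genes as examples or past the threshold, and the 3 genes with the highest r for each member, of which the text gives some. On counts simulated from the main kept cells, the genotype test was checked over all cells and in each type, and the G2/M test over all cells. The test against unprimed cells and the interaction were checked in erythroid-primed cells only. The alternatives were not simulated. Labels give 2 libraries a group and do not pair replicate numbers. The p-values of the genotype tests over all cells and within types measure the spread between pools of mice. Those between types, between G2/M classes and of the interactions come from fits with the library as a block. They measure the spread left after that block, over sums of the same 4 libraries. Values of some genes are not reported here.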

Additional observations from a re-analysis of the deposited data

How the results depend on the processing

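Over all cells the signs of the 5 members' genotype differences held under every alternative run. The replicate block added the replicate number to the fit. The depth block grouped control replicate 1 with knockout replicate 2, and control replicate 2 with knockout replicate 1. In each genotype the former held more UMIs, 59033602 and 53844729 against 18846887 and 32736147. The labels give no such grouping, so calls under the depth block rest on a grouping chosen here. For Tbl1xr1 the log2 difference was 0.66 with DESeq2 and 0.65 with no filter on low counts, with the depth block and with the replicate block, each past the threshold, and 0.52 to 0.79 with 1 library left out. For Gps2 it was -0.61 with DESeq2, with no filter and with the depth block (past the threshold), and -0.80 to -0.44 with 1 library left out. The replicate block moved Tbl1xr1 past the threshold (adjusted p = 0.0383) and Gps2 to an adjusted p of 0.0536. Same-numbered libraries did not deviate together (r = -0.058 over 13779 genes), so the numbers were not read as pairs. The replicate block called 1257 genes and 2 of the 30 members' tests within types.

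The number of genes called over all cells was 474, against 946 with DESeq2, 1933 with no filter, 1735 with the depth block and 372 to 2892 with 1 library left out (2892 without control replicate 1, 1934 without control replicate 2). The number of members called over all cells was 0, against 2 with DESeq2, 2 with no filter, 2 with the depth block, 1 with the replicate block and 0 to 2 with 1 library left out. Within types it was 0 of 30, against 2 with copied barcodes included, 2 with DESeq2, 6 with no filter and 6 with the depth block. The gene counts above are for the test over all cells. Shares of all genes called within types and against unprimed cells are not given for the alternatives. The counts of members under them therefore have no background to be read against. Against unprimed cells it was 5 of 25, against 3 with copied barcodes, 1 with no filter and 2 to 4 with 1 library left out. With a gate at 4 times the mean it was 1, out of fewer tests. That gate left 9 and 8 neutrophil-primed cells in the knockout libraries, so Tbl1x and Hdac3 could not be tested in that type. For G2/M it was 1, against 0 to 1 with 1 library left out. A fit without 1 library assumes that the lone library of a group varies like those of the other group.

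The paralogue share differed by 6.58 percentage points with copied barcodes included and by 7.29 to 8.45 with 1 library left out. Of 90 tests of a member, 29 changed sign under some alternative. They were spread over all 5 members, no reversed value was called, and the 6 tests that were called kept their sign. Among the values given for single genes, Hdac3 changed sign in these settings. With copied barcodes included it was -0.045 in monocyte and dendritic-primed and -0.036 in neutrophil-primed cells between genotypes and -0.0081 for G2/M, and with the stricter gate -0.22 in monocyte and dendritic-primed cells. With 1 library left out, it ran from -0.024 to 0.17 in lymphoid-primed and from -0.10 to 0.33 in monocyte and dendritic-primed cells between genotypes, and against unprimed cells from -0.20 to 0.054 in erythroid-primed and from -0.16 to 0.058 in monocyte and dendritic-primed cells. The causes were not tested. With 2 libraries a group and, in simulated data, 44.3% of genes of log2 size 1 found, smaller differences can be missed.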
